A study of Mus musculus with 8 samples.

Results

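The enzymes and readers that write, remove and bind acetyl and methyl groups on histones and DNA were followed in the hypothalamus of male C3H/Hen mice. The rule takes genes by name and uses no measured value, although the list was drawn up with earlier results of these data known, and 44 genes were looked for among the 34797 gene names listed in the array files. All 44 were found, on 75 probes, and 74 of these probes were bright enough to be tested. The groups were 4 control mice and 4 mice of the maternal separation group (MS, labelled Stress). The MS group had been separated from the dam in daily sessions from postnatal day 2 to 14. During these sessions the dam was exposed to chronic unpredictable stress. Mice of both groups were weaned on postnatal day 21 and housed by sex, strain and condition. Whole dissected hypothalamus was taken from adult mice that had been deprived of food beforehand in both groups, so each value is a mixture of neurons, glia, vessels and any neighbouring tissue. In such bulk tissue, fewer cells of a type and less RNA per cell cannot be told apart. The paper reports that the mice had earlier pressed levers for sweetened milk, and that MS males of this strain pressed more on some schedules. The part of this experience in the values was not tested. The labels number the mice but do not say which of them shared a litter or cage, and the p-values therefore measure the spread between these animals only. Control mice 8.2, 8.4 and 8.5 share the figure ahead of the dot, as do MS 7.1, 7.2 and 7.6. No such figure occurs in both groups, so whatever it stands for cannot be told apart from the group.

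Histone acetyltransferases such as CREBBP and EP300 add acetyl groups, which loosen chromatin, and histone deacetylases (HDACs) and sirtuins take them off. DNA methyltransferases place methyl groups on cytosine, UHRF1 brings DNMT1 to newly copied DNA, TET enzymes oxidise the methyl group as a step in its removal, and methyl-CpG-binding domain (MBD) proteins bind methylated DNA. Histone methyltransferases and demethylases set the marks of active or silent genes, EZH2 being the catalytic subunit of Polycomb repressive complex 2. These genes have been followed in early-life stress research because the marks they set can outlast the stimulus, and the comparison addressed whether their transcript levels differed in the hypothalamus of MS mice.

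No member differed between MS and control mice in the test over all probes. Of the 44 genes, 0 were called at an adjusted p under 0.05 (limma with Benjamini-Hochberg adjustment over 37313 probes), against 0% of all probes tested. The smallest adjusted p among the members was 0.989. With the brightest probe standing for each gene, 1 member was found at an unadjusted limma p under 0.05, *Sirt3*, where 3.4% of all probes passed. Of the dimmer probes, 1 of *Tet3* (limma unadjusted p = 0.000669) and 1 of *Sirt7* (limma unadjusted p = 0.0241) also passed. The mean was higher in MS mice for 20 members and lower for 24, and 49.5% of all probes had a higher mean in MS mice. The median difference, given throughout as MS minus control in log2 intensity, was -0.011 over the members and -0.0012 over all probes. With arrays scaled to their median instead, these were 0.01 and 0.02. In the brightest probe of 2 members, *Sirt3* and *Uhrf1*, no MS value fell within the range of the control values or the reverse, which held for 2.03% of all probes.

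The size of difference that the arrays left possible was small for the brightest probe of nearly all members. In 43 of the 44 genes, the 95% confidence interval of this probe's difference lay wholly within a 1.5-fold change in either direction. This held for 84% of all probes, and for 91.8% of the 32812 probes that were well above background on all 8 arrays, as the 44 brightest member probes were. The exception was *Uhrf1*. The dimmest *Tet3* probe, which does not stand for its gene, had an interval from -0.64 to -0.25 and also reached beyond a 1.5-fold change. The median absolute difference was 0.04 in the members, 0.06 in the probes well above background on all 8 arrays and 0.07 in all probes tested. The median standard deviation within groups followed the same order, at 0.106, 0.125 and 0.137.

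**Figure D1:**
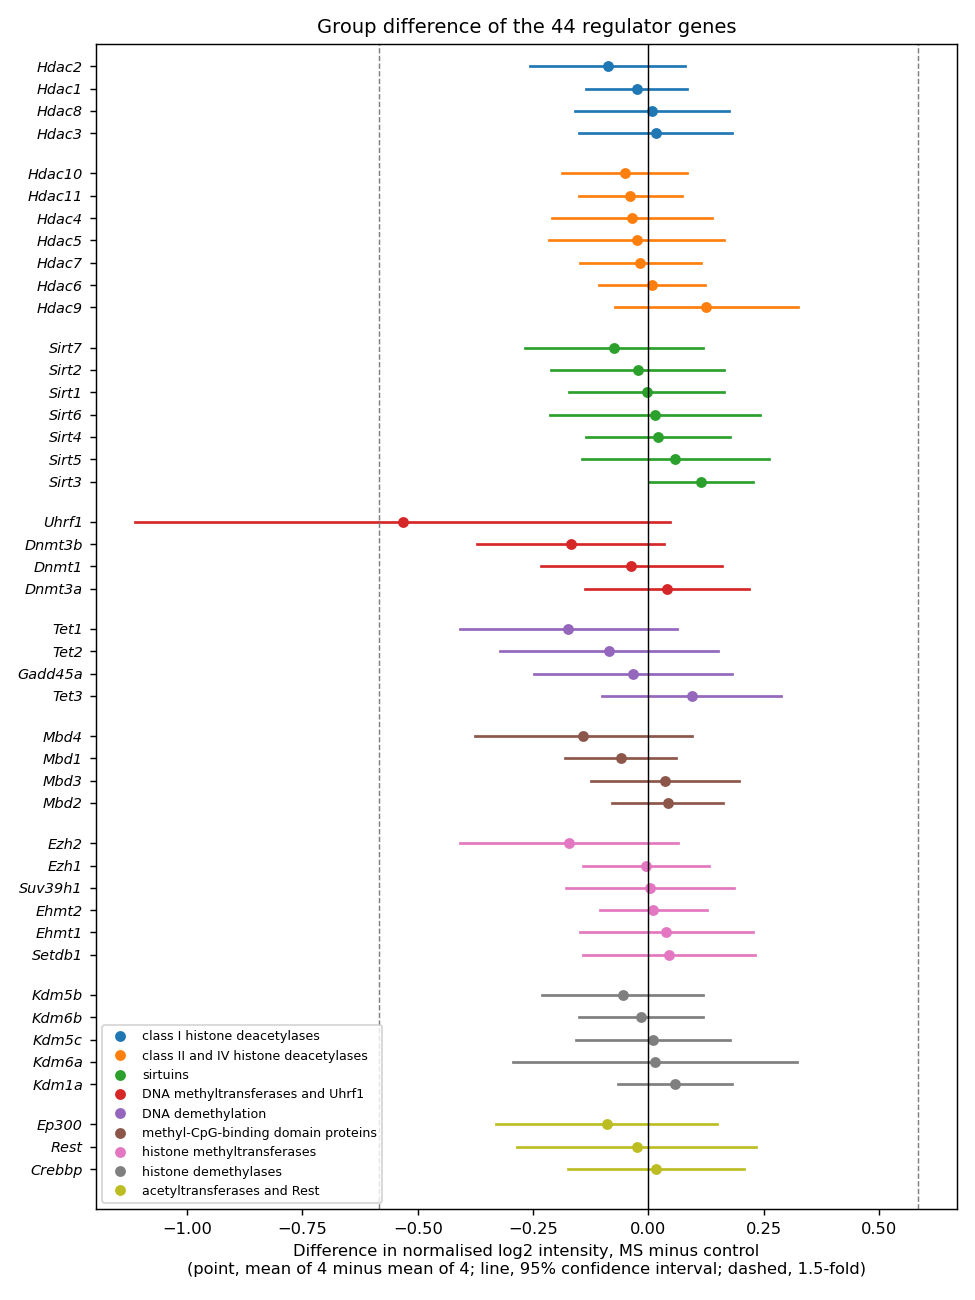
Difference in log2 intensity between MS and control mice (x axis, MS minus control) for the brightest probe of each of the 44 genes. Genes are grouped by class and coloured by it. Points are the difference of the means of 4 mice each, lines the 95% confidence intervals and dashed lines a 1.5-fold change. The intervals lie within the dashed lines for 43 genes, and that of *Uhrf1* reaches from -1.11 to 0.05.

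The probes of the members on which the results turn were 60 bases long. The first 4 belong to *Sirt3* and *Uhrf1*, the genes whose groups did not overlap on their brightest probe, and to *Hdac2* and *Ezh2*. The *Hdac2* probe was spotted 10 times on each array. The *Ezh2* difference varied most between the rows of the slide among the 44 genes. The next pair shows both *Crebbp* probes, with the longest uninterrupted repeat of a 3-base unit in capitals.
Sirt3: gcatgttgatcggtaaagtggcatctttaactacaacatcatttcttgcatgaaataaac
Uhrf1: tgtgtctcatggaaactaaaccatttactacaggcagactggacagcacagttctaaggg
Hdac2: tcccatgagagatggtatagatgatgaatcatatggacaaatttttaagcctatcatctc
Ezh2: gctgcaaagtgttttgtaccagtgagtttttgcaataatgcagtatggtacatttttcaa
Crebbp, brighter probe: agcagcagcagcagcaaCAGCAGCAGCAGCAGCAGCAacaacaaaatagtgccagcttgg
Crebbp, other probe: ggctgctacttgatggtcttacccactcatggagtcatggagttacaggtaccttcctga
In the mm9 build that the array files use, the *Sirt3* probe is at chr7:148049581-148049640 on the minus strand, and the *Uhrf1* probe is at chr17:56462770-56462829 on the plus strand. The *Hdac2* probe spans chr10:36713455-36713589 on the plus strand. It covers 135 bases of genome with 60 bases of sequence, so it crosses an exon junction. The *Ezh2* probe is at chr6:47480307-47480366 on the minus strand. The *Crebbp* probes are at chr16:4084710-4084769 and chr16:4082201-4082260 on the minus strand. Each of these probes was designed against a transcript of its gene, and no mm9 annotation was used here to place them in coding or untranslated exons.

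Among the class I deacetylases, which act in nuclear corepressor complexes, 2 of 4 had a higher and 2 a lower mean in MS mice, within -0.09 to 0.02. On its brightest probe, *Hdac1* was the steadiest member of the whole set. Relative to the 75th percentile of each array, the scale of all levels here, its log2 intensity was 2.87, 2.87, 2.87 and 2.89 in control mice 8.2, 8.4, 8.5 and 6.2, and 2.82, 2.82, 2.89 and 2.86 in MS mice 5.3, 7.1, 7.2 and 7.6. The difference was -0.03 with an interval from -0.14 to 0.08. The dimmer *Hdac1* probes were less steady, with standard errors of the difference of 0.07 and 0.10 against 0.05. *Hdac2*, the close paralogue of *Hdac1*, read -2.97, -2.97, -2.94 and -3.01 in the control mice and -3.01, -2.94, -3.04 and -3.25 in the MS mice, in the same order. Only MS 7.6 fell below all control mice by more than 0.04, and the difference of -0.09 (interval -0.26 to 0.08) became -0.03 without it. MS 7.6 was also the dimmest array, with a 75th percentile of 499 intensity units where the other 7 arrays had 751 to 902. *Hdac3* read 1.05, 1.02, 0.79 and 0.95 in the control mice and 0.91, 1.02, 1.03 and 0.92 in the MS mice, and its groups overlapped throughout. *Hdac8* differed by 0.01.

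The spots of the *Hdac2* probe gave the error of a single spot of this probe. After outlier spots were left out, 8 to 10 spots remained on each array, and their standard deviation averaged 0.104. The standard error of a mean of 10 such spots was 0.033. The standard deviation of the 8 mouse means was 0.1003, and 0.038 without MS 7.6, whose mean of -3.25 lay below the other 7 (-3.04 to -2.94). The other members were measured with 1 spot for each probe, so the spread of a single spot is part of the spread between their mice. The size of that spread is not known for them. In the brightest *Hdac1* probe the whole standard deviation within groups was 0.026, below that of the *Hdac2* spots.

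Class II and IV deacetylases, several of which shuttle between nucleus and cytoplasm, had differences between -0.05 and 0.13, with 2 of 7 higher and 5 lower in MS mice. *Hdac4* read 1.19, 1.15, 1.13 and 0.99 in the control mice and 1.24, 1.01, 1.04 and 1.03 in the MS mice. MS 5.3 lay above every other mouse and the remaining MS mice lay below 3 of the 4 controls (difference -0.04, interval -0.21 to 0.14). *Hdac5* read 5.24, 5.28, 5.20 and 5.21 in the control mice and 5.26, 5.04, 5.13 and 5.40 in the MS mice, with the lowest and the highest value of the 8 both in the MS group. *Hdac9*, the largest difference of the class, read 0.16, -0.03, -0.19 and -0.08 in the control mice and 0.15, 0.09, 0.16 and -0.03 in the MS mice. Control 8.2 matched the highest MS mice, and the difference was 0.13 (interval -0.07 to 0.32, limma adjusted p = 0.989). The 4 remaining genes of the class, *Hdac6*, *Hdac7*, *Hdac10* and *Hdac11*, differed by -0.05 to 0.01.

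Of the sirtuins, the deacylases that depend on nicotinamide adenine dinucleotide, 4 had a higher and 3 a lower mean in MS mice. *Sirt3*, the main deacetylase of the mitochondrial matrix, had the smallest p among the brightest probes of the members. Its log2 intensity was 3.68, 3.72, 3.64 and 3.70 in the control mice and 3.76, 3.84, 3.82 and 3.78 in the MS mice. Every MS mouse was above every control mouse. The difference of 0.11, a 1.08-fold higher signal, had an interval from 0.00053 to 0.23 and an unadjusted limma p of 0.0492 with an adjusted p of 0.989. An exact two-sided permutation test over the 70 ways to split the mice gave p = 0.0286, the smallest this design allows. Every probe whose groups do not overlap reaches this value, as *Uhrf1* did and 2.03% of all probes. The test therefore restates the separation and adds no evidence to it. The groups of *Sirt3* overlapped under normexp background correction, where the difference was 0.12. *Sirt5*, another mitochondrial sirtuin, read 1.49, 1.47, 1.29 and 1.51 in the control mice and 1.29, 1.51, 1.60 and 1.59 in the MS mice. A single low mouse in each group, control 8.5 and MS 5.3, set its spread, and the difference was 0.06 (interval -0.14 to 0.26). *Sirt4*, also mitochondrial, differed by 0.02. The nuclear *Sirt1*, *Sirt6* and *Sirt7* differed by 0.00, 0.01 and -0.08, and *Sirt2* by -0.02.

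**Figure D2:**
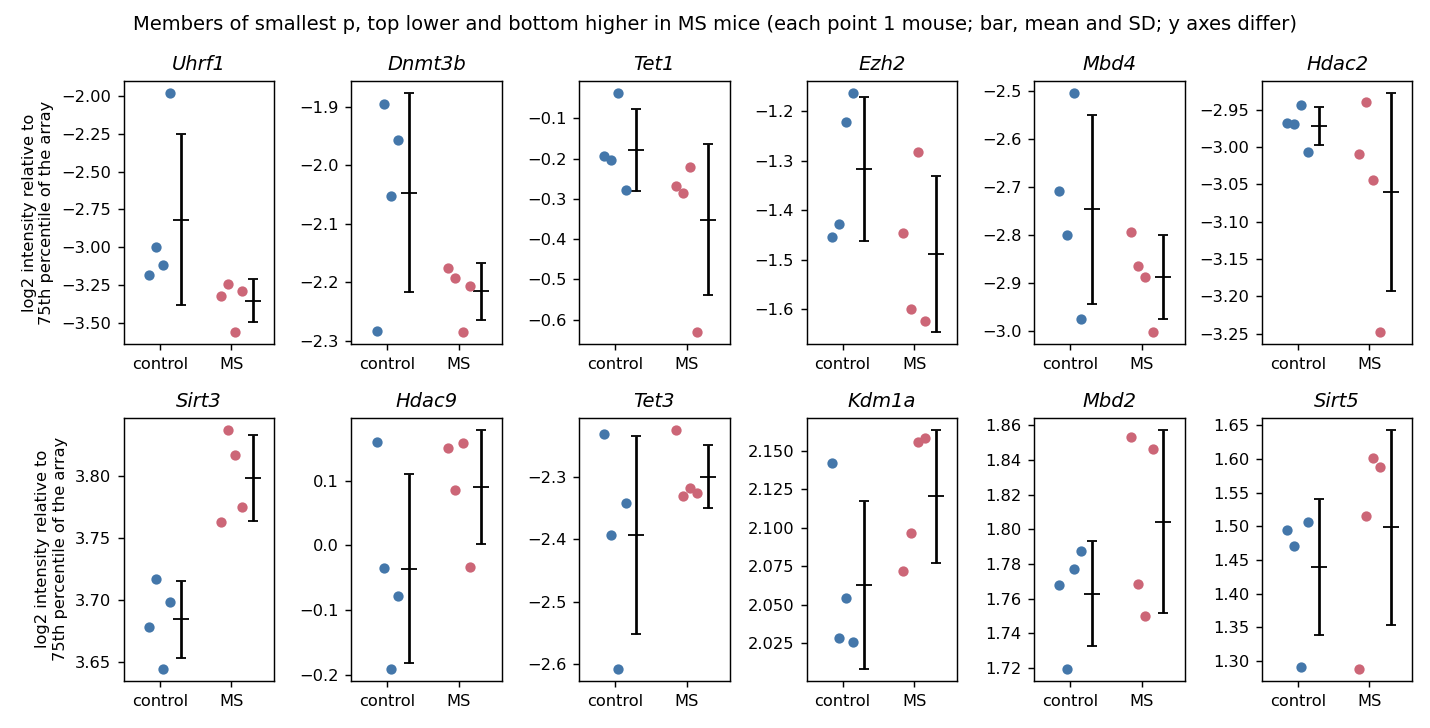
Log2 intensity relative to the 75th percentile of the array (y axis, different range in each panel) in the 4 control and 4 MS mice for the 6 members of smallest p with a lower mean in MS mice (top) and the 6 with a higher mean (bottom). Each point is 1 mouse on the brightest probe of the gene, and the bar is the mean with its standard deviation. *Uhrf1* and *Sirt3* are the panels in which the groups do not overlap.

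*Uhrf1* showed the widest difference and the widest spread of the set. It read -3.18, -2.99, -3.11 and -1.98 in the control mice and -3.32, -3.24, -3.56 and -3.29 in the MS mice. All MS mice lay below all control mice, and control 6.2 stood 1.01 above the next control mouse. The difference was -0.53 (interval -1.11 to 0.05, limma unadjusted p = 0.0673, adjusted p = 0.989). Without control 6.2 the difference shrank to -0.25 (limma unadjusted p = 0.0329, adjusted p = 0.988). Leaving out the highest control could not make the groups overlap. The p follows the removal of the most extreme value, so it is no further test of the gene. The groups did overlap under normexp background correction, with a difference of -0.28, and in the authors' own table, with a difference of -0.35. Control 6.2 also carried the most signal of anterior pituitary hormone genes. The mean log2 intensity of the 6 pituitary markers tested, of 7 listed, was 3.67 in this mouse, 0.17 to 1.29 in the other control mice and 0.17 to 0.92 in the MS mice. The part of pituitary tissue in the *Uhrf1* values was not tested. A second *Uhrf1* probe was well above background on 0 of the 8 arrays and was left out.

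The DNA methyltransferases themselves showed smaller differences. *Dnmt1*, which copies methylation after replication, read 0.08, 0.05, -0.18 and -0.08 in the control mice and 0.08, -0.03, -0.16 and -0.17 in the MS mice. Both groups covered nearly the same range, and the difference was -0.04 (interval -0.23 to 0.16). *Dnmt3a*, a de novo methyltransferase abundant in neurons, read 2.83, 2.61, 2.67 and 2.68 in the control mice and 2.84, 2.79, 2.74 and 2.58 in the MS mice. MS 5.3 and control 8.2 were the highest and MS 7.6 the lowest, and the difference was 0.04 (interval -0.14 to 0.22). *Dnmt3b*, the other de novo enzyme, read -2.28, -1.89, -2.05 and -1.96 in the control mice and -2.18, -2.19, -2.29 and -2.21 in the MS mice. Control 8.2 was as low as the lowest MS mouse and the other 3 controls were above all MS mice. The difference was -0.17 (interval -0.37 to 0.03, limma adjusted p = 0.989), and it was -0.25 without control 8.2. The 2 further *Dnmt3b* probes, both dimmer, differed by -0.04 and -0.01.

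Of the TET genes, *Tet1* and *Tet2* had a lower and *Tet3* a higher mean in MS mice. *Tet1* read -0.19, -0.20, -0.04 and -0.28 in the control mice and -0.27, -0.28, -0.22 and -0.63 in the MS mice. MS 7.6 was 0.35 below the next lowest MS mouse, and without it the difference of -0.17 (interval -0.41 to 0.06) became -0.08. *Tet2* read 1.43, 1.40, 1.70 and 1.51 in the control mice and 1.39, 1.59, 1.52 and 1.20 in the MS mice. Its difference was -0.09 (interval -0.32 to 0.15) and became -0.01 without MS 7.6. All 3 tested probes of *Tet1* and all 3 of *Tet2* had a lower mean in MS mice, from -0.17 to -0.06 and from -0.10 to -0.07. *Gadd45a*, a stress-induced gene linked to active demethylation, differed by -0.03.

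The 3 probes of *Tet3* did not give the same difference.
Tet3, brightest probe: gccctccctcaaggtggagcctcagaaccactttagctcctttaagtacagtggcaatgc
Tet3, middle probe: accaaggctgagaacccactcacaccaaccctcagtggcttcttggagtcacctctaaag
Tet3, dimmest probe: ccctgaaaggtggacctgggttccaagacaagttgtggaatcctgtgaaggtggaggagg
They lie on the minus strand of mm9 at chr6:83319720-83319779, chr6:83352743-83352802 and chr6:83318731-83318790, and begin at bases 3494, 2202 and 4483 of one transcript. The brightest read -2.23, -2.39, -2.61 and -2.34 in the control mice and -2.22, -2.33, -2.32 and -2.33 in the MS mice (difference 0.09, interval -0.10 to 0.29). The middle probe differed by -0.01. The dimmest read -5.07, -5.24, -5.41 and -5.31 in the control mice and -5.60, -5.79, -5.68 and -5.75 in the MS mice, and its groups did not overlap. Its difference was -0.45 (interval -0.64 to -0.25, limma unadjusted p = 0.000669, adjusted p = 0.989). The dimmest probe was near background: it was well above it in 3 control and 2 MS mice. Its difference was -0.02 under normexp background correction and -0.12 in the authors' table, and the cause of these changes was not tested.

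**Figure D3:**
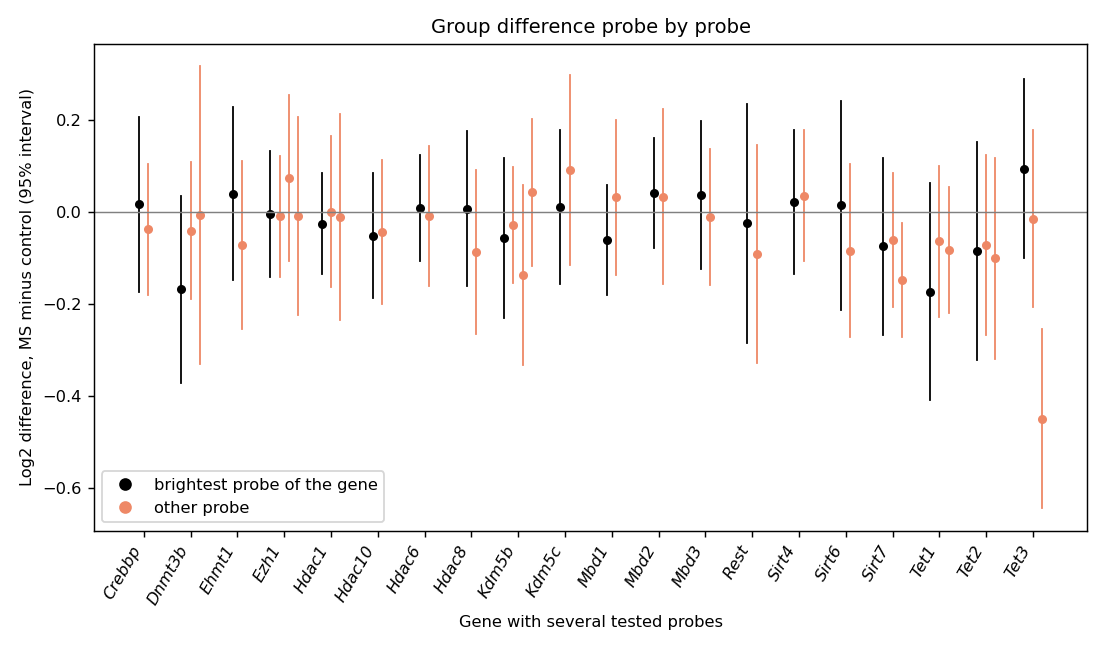
Difference between MS and control mice (y axis, log2 intensity, MS minus control, with the 95% confidence interval) for each tested probe of the 20 genes that had more than 1. Black marks the brightest probe of a gene, which stands for it elsewhere, and orange its other probes. The probes of 9 genes have one sign, and the dimmest probe of *Tet3* at -0.45 lies apart.

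Across the 20 members with more than 1 tested probe, all probes had one sign in 9 genes: *Dnmt3b*, *Hdac10*, *Kdm5c*, *Mbd2*, *Rest*, *Sirt4*, *Sirt7*, *Tet1* and *Tet2*. Outside *Tet3*, the probes of a gene differed by at most 0.18, in *Kdm5b*. A pair of *Hdac6* probes showed how far near-identical sequences can differ. They share the 48 bases in capitals.
Hdac6, brighter probe: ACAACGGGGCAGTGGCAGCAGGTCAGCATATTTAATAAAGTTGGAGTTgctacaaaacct
Hdac6, other probe: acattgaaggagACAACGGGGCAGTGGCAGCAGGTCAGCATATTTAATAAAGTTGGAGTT
The probes lie at chrX:7507249-7507308 and chrX:7507261-7507320 of mm9 on the minus strand. Their levels differed by -0.14 in MS 7.6, by 0.14 in MS 7.2 and by values between these in the other 6 mice. The group difference was 0.01 for one and -0.01 for the other. For *Sirt7*, a nucleolar sirtuin, the dimmest of 3 probes differed by -0.15 (limma unadjusted p = 0.0241, adjusted p = 0.989) and the brightest by -0.08. The groups of this dimmest probe did not overlap, at -1.05 to -0.95 in control and -1.22 to -1.11 in MS mice, while those of the brightest did. Of the 74 tested probes, 4 had groups without overlap, which held for 2.03% of all probes. They were those of *Sirt3* and *Uhrf1*, and the dimmest probes of *Sirt7* and *Tet3*.

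Of the methyl-CpG-binding domain proteins, 2 had a higher and 2 a lower mean in MS mice. *Mbd4*, a DNA glycosylase that repairs deaminated methylcytosine, read -2.71, -2.80, -2.50 and -2.98 in the control mice and -2.79, -2.87, -2.89 and -3.00 in the MS mice. Control 8.5 was the highest of all mice, and the difference of -0.14 (interval -0.38 to 0.09) became -0.06 without it. *Mbd2* read 1.77, 1.72, 1.78 and 1.79 in the control mice and 1.85, 1.77, 1.75 and 1.85 in the MS mice (difference 0.04, interval -0.08 to 0.16). *Mbd1* and *Mbd3* differed by -0.06 and 0.04.

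Among the histone methyltransferases, *Ezh2* showed the largest difference. It read -1.45, -1.43, -1.22 and -1.16 in the control mice and -1.45, -1.60, -1.28 and -1.63 in the MS mice. The difference was -0.17 (interval -0.41 to 0.06, limma adjusted p = 0.989) and was unlike in the 2 rows of the slide. In row 1, which held control 8.2 and 8.4 and MS 5.3 and 7.2, it was 0.08, and in row 2, with control 6.2 and 8.5 and MS 7.1 and 7.6, it was -0.42. The difference between the rows, -0.50, had a limma unadjusted p of 0.00671 and an adjusted p of 0.941. This was the smallest p of the 44 members, and the share of all probes with so small a p was not counted. A change of sign was common, as 21 of the 44 had one sign in both rows. *Ezh1*, which replaces *Ezh2* in non-dividing cells, differed by 0.00, and its 4 probes differed by -0.01 to 0.07. The H3K9 methyltransferases *Ehmt1*, *Ehmt2*, *Setdb1* and *Suv39h1* differed by 0.04, 0.01, 0.05 and 0.00.

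Of the histone demethylases, 3 had a higher and 2 a lower mean in MS mice. *Kdm1a*, the lysine demethylase of the REST corepressor complex, read 2.14, 2.03, 2.05 and 2.03 in the control mice and 2.07, 2.10, 2.16 and 2.16 in the MS mice. Apart from control 8.2, every control mouse was below every MS mouse, and the difference was 0.06 (interval -0.07 to 0.18). *Kdm5b*, *Kdm5c*, *Kdm6a* and *Kdm6b* differed by -0.06, 0.01, 0.01 and -0.02, and *Kdm6a* had the widest interval of them, from -0.29 to 0.32.

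The acetyltransferase *Crebbp* read 4.44, 4.41, 4.44 and 4.39 in the control mice and 4.49, 4.32, 4.29 and 4.64 in the MS mice. The controls lay within 0.05 of each other and the MS mice spread to both sides of them (difference 0.02, interval -0.17 to 0.21). This was its brighter probe, whose sequence is made up largely of CAG units, with 20 bases in the longest run without an interruption, so signal from other transcripts with such repeats cannot be told apart from that of *Crebbp*. The other *Crebbp* probe, with no such run, differed by -0.04 (interval -0.18 to 0.10). *Ep300*, the paralogue of *Crebbp*, differed by -0.09 and *Rest*, the repressor of neuronal genes outside neurons, by -0.02.

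**Figure D4:**
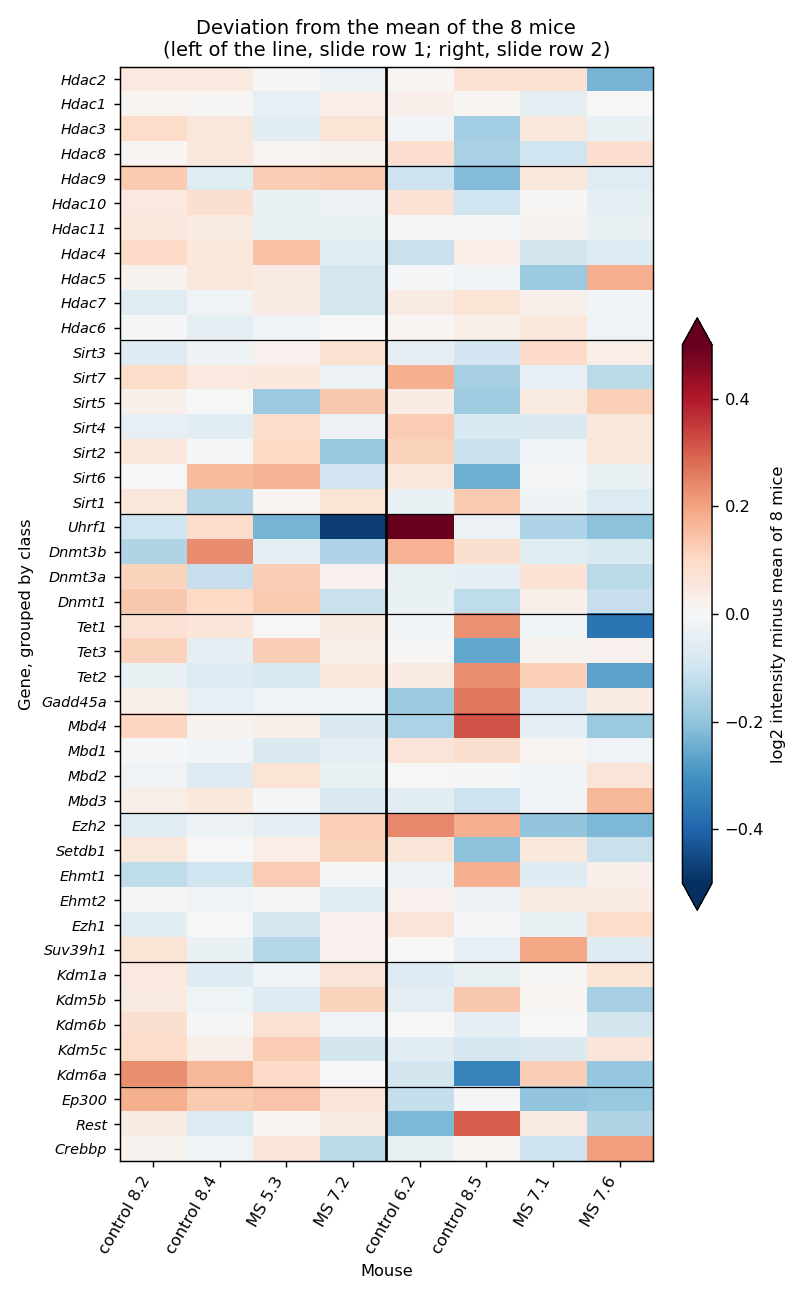
Deviation of each mouse (x axis, ordered by slide row and group) from the mean of the 8 mice for the 44 genes (y axis, grouped by class), in log2 intensity, with colours capped at 0.5 in either direction. *Uhrf1* in control 6.2 is the strongest deviation, and *Ep300* separates the rows of the slide.

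The position on the slide was examined because the 8 arrays lay on 1 slide in 2 rows, each with 2 mice of both groups. With group and row in one limma model, 0 of the 44 members differed between rows at an adjusted p under 0.05, against 0% of all probes. At an unadjusted p under 0.05, 2 members did, *Ep300* and *Hdac9*, against 7.02% of all probes. *Ep300* read -0.14, -0.18, -0.17 and -0.25 in row 1 (control 8.2, control 8.4, MS 5.3 and MS 7.2) and -0.43, -0.32, -0.51 and -0.50 in row 2 (control 6.2, control 8.5, MS 7.1 and MS 7.6). It was the 1 member whose rows did not overlap, as 4.55% of all probes did. Its row difference of -0.26 (row 2 minus row 1, limma unadjusted p = 0.0026, adjusted p = 0.564) was larger than its group difference. This was so for 23 of the 44 members. The group difference had one sign in both rows in 21 of the 44 members, and the share of all probes was not counted. Among these were *Sirt3*, *Uhrf1*, *Dnmt3b*, *Tet1*, *Mbd4*, *Hdac2* and *Hdac9*, which are among the members of smallest p. A larger difference over both rows makes one sign in each more likely, so the shared sign adds no evidence for them.

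**Figure D5:**
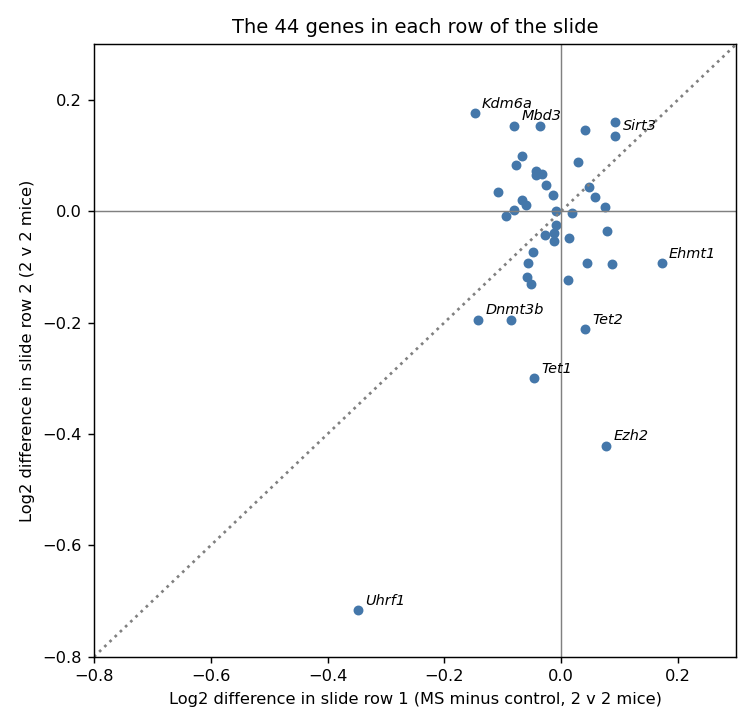
Difference between MS and control mice (log2 intensity, MS minus control) within row 1 of the slide (x axis, 2 control and 2 MS mice) and within row 2 (y axis, 2 and 2) for the 44 genes. On the dotted line both are equal. *Uhrf1* is lower in MS mice in both rows, at -0.35 and -0.72, and *Ezh2* in row 2.

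The extremes of the members were unevenly spread over the mice. Control 8.5 had the lowest value of the 8 mice in 13 members and the highest in 10, and MS 7.6 the lowest in 8 and the highest in 5. Control 8.4 had the lowest in 3 and the highest in 2. Among all probes, the shares at the lowest value were 22.3% for control 8.5, 19.2% for MS 7.6 and 9.54% for control 8.4, and the shares at the highest value were 14.9%, 23.5% and 9.62%.

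Further genes of the same machinery were read from 6 lists. All 94 listed genes were tested. In limma, 0 passed an adjusted p of 0.05 in either direction and 4 had an unadjusted p under 0.05. Over all probes these shares were 0% and 3.4%. Of 15 Polycomb subunits, 8 had a higher mean in MS mice. *Phf19*, a subunit that guides Polycomb repressive complex 2 to chromatin, read -2.26, -1.93, -1.26 and -0.94 in control 8.2, 8.4, 8.5 and 6.2 and -2.27, -2.77, -2.66 and -2.25 in MS 5.3, 7.1, 7.2 and 7.6. Control 8.2 lay between MS 5.3 and MS 7.6, and the other controls were above all MS mice (difference -0.89, limma unadjusted p = 0.0141, adjusted p = 0.989). As for *Uhrf1*, its highest value was that of control 6.2. *Bmi1*, a subunit of Polycomb repressive complex 1, differed by 0.09.

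Of 14 other histone demethylases, 7 had a higher mean in MS mice, with *Kdm4a* at -0.19 and *Kdm2a* at 0.12. Of 20 deacetylase corepressor subunits, 10 had a higher mean, with *Tbl1x* at -0.14 and *Sap30* at 0.16. Of 23 other histone methyltransferases, 12 had a higher mean, with *Setd1a* at -0.14 and *Suv39h2* at 0.10. Of 11 other histone acetyltransferases, 10 had a higher mean, with *Hat1* at 0.11 and the exception *Kat6b*, listed on the array as *Myst4*, at -0.15. Their median difference was 0.05. Of 11 other methyl-CpG readers and DNA demethylation genes, 8 had a higher mean, with *Gadd45g* at 0.15 and *Mbd6* at -0.10. For each list the text names the gene with the lowest p among those higher and among those lower in MS mice, and their limma adjusted p was 0.989 throughout.

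The labelled tissue carried its own markers. Of 15 hypothalamic peptides and factors, 14 were well above background on all 8 arrays, and the exception was *Otp*. Their mean was higher in MS mice in 4 and lower in 11, with 0 called and 4 at an unadjusted limma p under 0.05. The shares over all probes were 0% and 3.4%. *Hcrt*, the orexin precursor, read 6.53, 6.65, 5.51 and 5.65 in control 8.2, 8.4, 8.5 and 6.2 and 3.46, 5.94, 3.54 and 5.62 in MS 5.3, 7.1, 7.2 and 7.6. MS 5.3 and MS 7.2 were low and the other MS mice lay within the range of the controls (difference -1.45, limma unadjusted p = 0.0475, adjusted p = 0.989). *Pmch*, the precursor of melanin-concentrating hormone, differed by -0.46, *Sst* by -0.21 and *Npy* by 0.19. All tested markers of neurons, astrocytes, oligodendrocytes, microglia, endothelium, meninges, choroid plexus, thalamus, striatum and pituitary were well above background too. The mean of the neuronal markers was 5.07 to 5.25 in control and 5.20 to 5.25 in MS mice, that of oligodendrocyte markers 3.21 to 3.71 and 3.48 to 3.61, and that of astrocyte markers 3.06 to 3.15 and 3.14 to 3.25. The astrocyte water channel *Aqp4* differed by 0.25 (limma unadjusted p = 0.00643, adjusted p = 0.989). The mean was lower in MS mice for all 6 tested pituitary markers, by -0.72 at the median, and for all 6 markers of fibroblasts and meninges, by -0.25 at the median. Control 6.2 was the highest mouse in each of the pituitary markers. For *Gh* it read 7.11, where the other controls read 0.97 to 2.52 and the MS mice 2.14 to 3.53. For *Tshb* it read 3.16, where the other controls read -1.06 to 2.05 and the MS mice -1.99 to -0.08. The meningeal mean ranged from -0.27 to 1.13 in control and from -0.25 to 1.27 in MS mice. The part of these mixtures in the members' values was not tested.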

How the data were processed

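Total RNA of 8 hypothalami, 4 per group, was labelled with Cy3 from 200 ng and hybridised to one-colour Agilent mouse arrays of 8 per slide. The intensities were deposited by the authors as written by Agilent Feature Extraction 10.10.1.1, per the file headers: background-subtracted processed signals, with mean, median and local background signals beside them. A second deposited file, the authors' processed log2 values of 34970 probes, had array medians equal to the second decimal and served as an alternative. How it was scaled is not given in the sources. Per the labels, the authors' processing used limma. The paper's methods and the file headers name different array designs, and probe names and mm9 positions were taken from the files.

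From 59305 spots, outlier spots were left out and log2 processed intensities were averaged over the spots of each of 55681 probes. Each array was then centred on its 75th percentile. Tests used limma on the 37313 probes that Feature Extraction marked well above background in 4 or more mice (version 3.58.1 in R 4.3.3, lmFit and eBayes, two-sided, Benjamini-Hochberg adjustment over all of them, threshold 0.05). No spot was saturated. The number of arrays limits the precision. On 20000 simulated probes in 4 and 4 arrays, the fit called 199 of 200 that had been changed by 1.5 on the log2 scale and 14 that had not. The largest difference of a member was 0.53, so the simulation does not tell how often changes of the members' size would be called. The brightest tested probe stood for a gene, and levels were not compared between probes of different genes. For all 75 member probes the accession in the file gave the same symbol in RefSeq (GRCm38.p6), whose coordinates were not used. Probes of listed genes other than the members were matched by symbol, accession or older symbol.

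The genes and lists were chosen with earlier results of these data known. Values by mouse are those of the 12 members of smallest p (6 per direction), members whose groups do not overlap, *Hdac1* to *Hdac5*, *Dnmt1*, *Dnmt3a*, *Tet1* to *Tet3*, *Ezh2* and *Crebbp*. *Ep300*, *Phf19*, *Hcrt* and the dimmest *Tet3* probe were added after their values were seen. The alternatives were scaling by quantiles or by the median, normexp background correction (offset 50), stricter and no filtering of dim probes, the authors' table, a term for slide row, a random block for mice whose numbers share the figure ahead of the dot, trended and robust variances, the mean of all probes of a gene, each slide row alone, each mouse left out and an adjusted p under 0.10.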

Additional observations from a re-analysis of the deposited data

Results flagged for a closer look

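In 8 of 88 groups of 4 values (44 genes in 2 groups), the highest or lowest mouse stood apart from the other 3 by more than Dixon's 95% critical value for the gap over the range. For independent, normally distributed values, chance would flag about 1 in 20 such groups. The members share the same arrays, and the share of all probes flagged by this rule was not counted. Whether 8 flags are unusual here was not tested. The ratio was 0.919 for *Hdac1* in control 6.2, where the gap was 0.017, and 0.98 for *Hdac11* in MS 7.1, where it was 0.051. It was 0.842 for *Uhrf1* in control 6.2, with a gap of 1.01, and 0.842 for *Hdac4* in MS 5.3, with a gap of 0.20. *Tet3* in MS 5.3 was also high, with a ratio of 0.878 and a gap of 0.094. Low values were those of *Sirt5* in control 8.5 (0.835), *Tet1* in MS 7.6 (0.847) and *Rest* in MS 7.6 (0.851). MS 7.6 was the dimmest array.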

How the results depend on the processing

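The count of members called was 0 under every alternative run, with a smallest adjusted p among the members of 0.513 to 0.9999 over these alternatives. A random block for mice whose numbers share the figure ahead of the dot, with an estimated correlation of -0.19, called 1 probe of all, as did row 2 alone, and neither was a member. Under that block 3 members had an unadjusted p under 0.05, where the main analysis had 1, and 9.04% of all probes did. The count was 0 with quantile scaling, normexp correction, well-above-background calls required on all 8 arrays, no filter, and slide row as a block, and 0 to 3 when each mouse was left out, with 3 without control 8.2, 2 without control 6.2 and 0 without control 8.4, control 8.5, MS 5.3, MS 7.1 or MS 7.6, where 3.03% to 4.5% of all probes passed. Members whose groups did not overlap numbered 0 with normexp correction (1.21% of all probes) and 1 in the authors' table (1.76%) against 2 in the main analysis. They numbered 11 in row 1 alone and 15 in row 2 alone, where groups of 2 leave 34.4% and 30.1% of all probes without overlap, and 2 to 6 with a mouse left out, with 6 without control 8.2 (4.67% of all probes) and 5 without MS 7.1 (5.42%). The cause was not tested. Of the 44 members, 16 kept the sign of their difference in all 20 alternatives, and 28 changed it in at least 1, none of them called. No paired analysis was possible because the groups share no mouse numbers.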
